A study of Rattus norvegicus with 70 samples.

Results

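Skeletal muscle of rats that had inhaled ozone was set against skeletal muscle of rats that had breathed air. The 11 muscle libraries were all those with a column in the muscle table, out of 68 libraries from 6 tissues analysed in the series. Air libraries 2, 3, 4, 7, 9 and 11 formed a group of 6, and ozone libraries 13, 15, 16, 23 and 24 a group of 5. A library titled ozone 17 was not analysed here. Both groups were male Wistar-Kyoto rats, an inbred strain, with an exposure of 4 h to air or to 0.8 ppm ozone, a strongly oxidising gas. The tissue is labelled only as muscle: the muscle taken, the part of it, the rats' age and the delay between exposure and collection are not stated in the labels. The table had 19441 genes with a usable symbol, and the 13043 with a mean value of at least 10 over the 11 libraries were tested.

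Skeletal muscle is made of fibres that contract slowly or fast, and each kind builds its sarcomeres from its own forms of myosin, troponin and tropomyosin. Muscles, and parts of 1 muscle, differ in their share of slow and fast fibres and in the homeobox factors that marked their position in the embryo. Muscle also holds most of the body's protein and is a main target of glucocorticoids, the adrenal steroid hormones whose receptor is a DNA-binding transcription factor. Under glucocorticoids, fasting or disuse, the ubiquitin ligases Trim63 (MuRF1) and Fbxo32 (atrogin-1) are known to mark muscle proteins for the proteasome.

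A deposited value is a gene's read count divided by 1 size factor per library, so values are relative to the other genes of the same library. Fold changes are differences of mean log2(value + 1), ozone minus air, given ± SE, and understate the change of low genes. A gene is said to have risen or fallen when limma's moderated test over all 13043 genes gave a Benjamini-Hochberg adjusted p under 0.05. The labels number the libraries without naming the rats they came from, so a p-value here measures how the libraries spread, which may be technical. Recovered reads per library ran from 14402574 to 18707084. All 13 muscle fibre markers with a row, of 16 listed, were present in both groups, and their summed value ran from 1869601 to 3159778 in air and from 3718708 to 5923260 after ozone. Myh1 and Myh4, 2 fast myosin genes, were not among the tested genes, so changes in them are unknown here. Air titles carry numbers up to 11 and ozone titles numbers from 13, so an order of handling, if the numbers follow one, cannot be told apart from ozone.

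Of the 13043 genes, 5702 differed between the exposures (43.7%): 2816 rose (21.6%) and 2886 fell (22.1%). All 5 ozone libraries lay above all 6 air libraries for 1665 genes (12.8%) and below them for 1505 (11.5%). The change was at least 2-fold for 724 risen and 1347 fallen genes and at least 4-fold for 114 and 254. The median log2 fold change of all tested genes was 0.02. When every library was scaled to the same total of reads instead, the median fell to −0.31 and 1117 genes rose (8.52%) and 5022 fell (38.3%), so the share of risen genes among those called went from 49.4% to 18.2%. Directions of gene groups that depend on this choice are marked as such. Counts given with total-read scaling are read against 8.52% risen and 38.3% fallen. A list with as many risen as fallen genes there still has a higher share of risen calls than the 18.2% over all genes. The first principal component held 54.0% of the variance and separated the groups, with air libraries between −69.1 and −29.1 and ozone libraries between 25.4 and 62.8. Ozone 15 was the ozone library nearest to air. The counts of each gene group below are read against these shares over all genes, and some groups have genes in common.

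**Figure D1:**
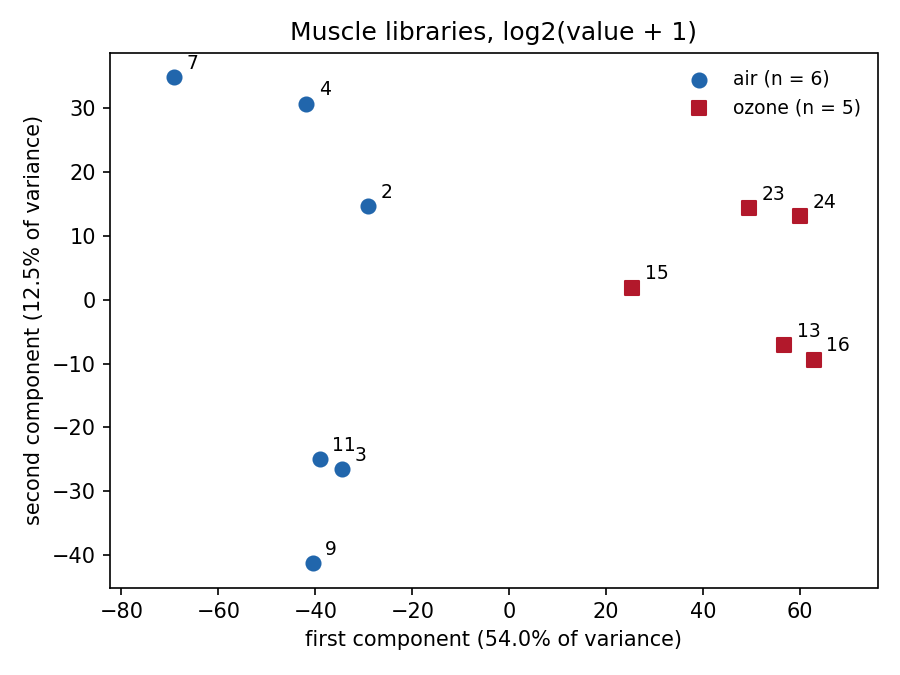
Scores of the 11 muscle libraries on the first and second principal components of log2(value + 1) over 13043 genes, with the share of variance on each axis. Circles are air and squares ozone, each marked with its library number: the ozone libraries lie between 25.4 and 62.8 on the first component and the air libraries between −69.1 and −29.1.

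Genes of the slow contractile apparatus had lower values after ozone and those of the fast apparatus higher ones. Of 15 slow-fibre genes 14 fell and 0 rose, with a median log2 fold change of −3.28, and of 14 tested fast-fibre genes (16 listed) 13 rose and 0 fell, with a median of 1.52. Myh7, the slow myosin heavy chain, lay between 96498 and 669727 (median 213736) in air and at 5241, 62411, 10177, 226274 and 5051 after ozone (−3.51 ± 0.93, adjusted p = 0.00879), a call that edgeR on recovered reads did not make (adjusted p = 0.0604). Ozone 23 was inside the air range for Myh7, ozone 15 somewhat below it, and the other 3 ozone libraries far below it. The slow regulatory light chain Myl2 lay between 1173 and 6017 (median 3411) in air and at 35.7, 399, 127, 1638 and 34.2 after ozone (−4.26 ± 0.86). It had the lowest fold change of all named genes, again with ozone 23 inside the air range. Tnnt1, Tnni1 and Tnnc1, the slow troponin subunits, all fell (−3.28 ± 0.90, −3.20 ± 0.82 and −3.35 ± 0.83), and edgeR did not call Tnnt1 (adjusted p = 0.0748). The slow tropomyosin Tpm3 fell by 3.64. The calcium pump of slow fibres, Atp2a2, fell by 2.75, and the calcium store protein Casq2 by 1.92. Of the 14 fallen slow-fibre genes only Myoz2, a Z-disc protein of slow fibres, had all ozone libraries below all air libraries, at 213, 1592, 784, 3508 and 171 against between 3739.6 and 16062 (median 8252). Myoglobin, Mb, the muscle oxygen store, was the member that did not pass (−0.82 ± 0.36, adjusted p = 0.0802).

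On the fast side, Myh2, the myosin heavy chain of oxidative fast fibres, lay between 778764 and 1393824 (median 1135332) in air and at 3635693, 2129002, 2896167, 3270614 and 3562566 after ozone (1.48 ± 0.22, adjusted p = 0.000211). Every ozone library was above every air library. Myh2 alone took 5.14% to 9.59% of all reads in air and 12.5% to 19.1% after ozone. Mybpc2, the fast myosin-binding protein C, lay between 16203 and 38884 (median 29126) in air and at 124809, 75656, 107536, 113700.1 and 113276 after ozone (1.99 ± 0.22), with no overlap. Pvalb, the calcium buffer parvalbumin of fast fibres, lay between 3107 and 11067 (median 8604) in air and at 47818, 17816, 28180.3, 21609.9 and 22569 after ozone (1.94 ± 0.36). Ozone 15 was the lowest ozone library for Myh2, Mybpc2 and Pvalb alike. Fast troponins Tnnc2 and Tnni2 rose by 1.68 ± 0.21 and 1.55 ± 0.23, and alpha-actinin 3, Actn3, by 1.42 ± 0.26. Casq1, the calsequestrin of fast fibres, did not pass (0.43 ± 0.18, adjusted p = 0.0601).

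**Figure D2:**
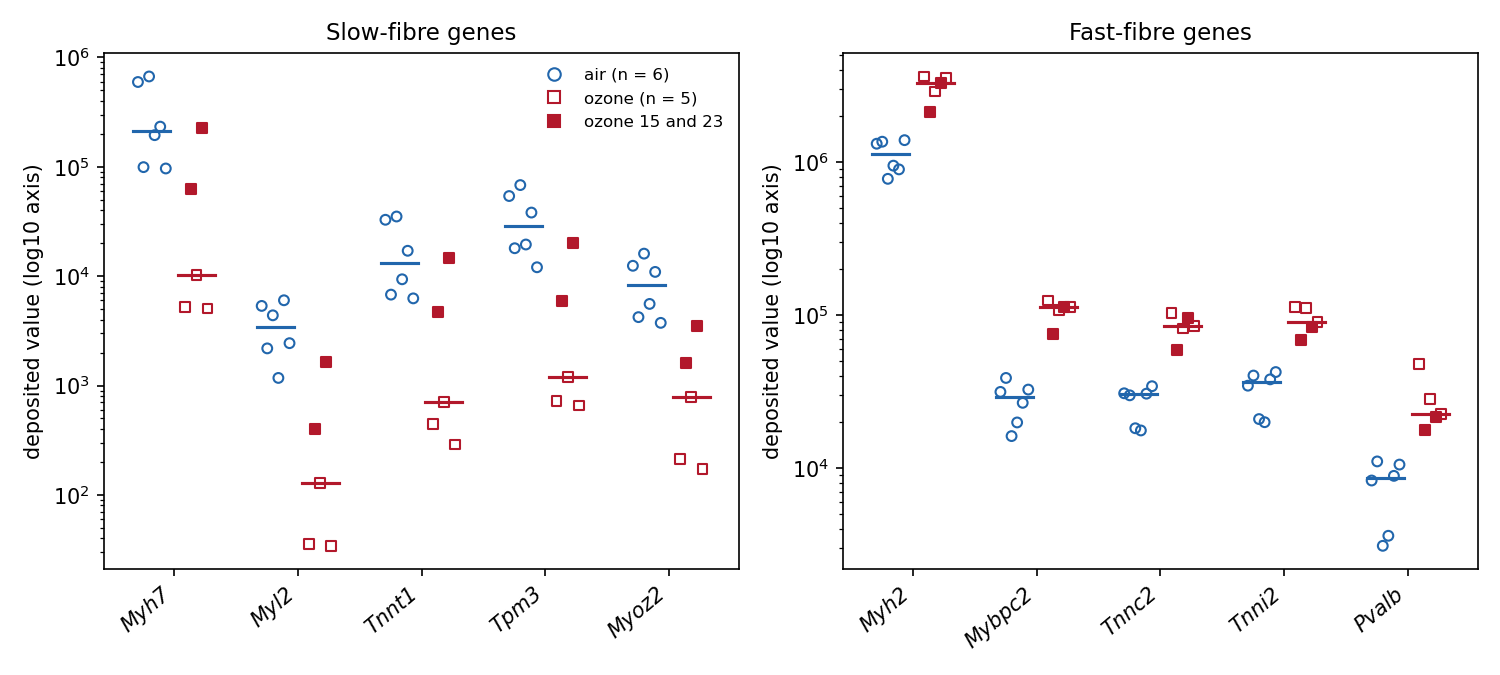
Deposited values of 5 slow-fibre genes (left) and 5 fast-fibre genes (right) in each muscle library on a log10 axis; circles are air and squares ozone, bars are group medians, and filled squares mark ozone 15 and 23. Ozone 23 lies among the air libraries for most slow genes but above them for the fast genes shown.

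The slow and the fast genes did not move together in every library. In ozone 23, 1 of the 14 fallen slow-fibre genes lay below every air library, while 12 of the 13 risen fast-fibre genes lay above every air library. Over all called genes, ozone 23 was above every air library for 88.1% of risen genes and below every one for 86.4% of fallen genes. In ozone 15 the same shares were 74.3% and 70.2%, the lowest of the 5 ozone libraries. Fibre-type genes differ with the exposure here, and whether the part of the muscle sampled did so too was not tested, so an effect of the exposure and a difference in fibre makeup cannot be told apart. In bulk libraries neither can fewer cells of a kind and less RNA per cell.

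Other parts of the sarcomere moved both ways. Of 48 tested general sarcomere genes (50 listed) 21 rose and 7 (4 without ozone 13) fell, with a median of 0.40. With total-read scaling 9 rose and 11 fell, still a higher share of risen calls than over all genes. Mybph, a relative of myosin-binding protein C, lay between 138 and 924 (median 356) in air and at 15079.7, 3804, 10765, 9369 and 13146 after ozone (4.70 ± 0.45, adjusted p = 1.43e-05). No ozone library came near the highest air library. Mybpc1, the slow form of myosin-binding protein C, lay between 95781 and 164196 (median 116591) in air and at 12640.3, 60312, 28202, 40056 and 15303 after ozone (−2.18 ± 0.34), also without overlap. The M-band protein Myom3 fell by 3.85, while its relative Myom2 rose (1.29 ± 0.17). Of 45 genes of excitation and calcium release (47 listed) 19 rose and 6 fell. The counts were 8 and 13 with total-read scaling, again a higher share of risen calls than over all genes. Kcnj11, the pore of the ATP-sensitive potassium channel, rose by 1.09 ± 0.12, and Nfatc4, a calcium-dependent transcription factor, fell by 1.25.

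Some transcription factors that pattern muscles by position differed between the exposures. They were gathered after the values were seen, by the gene symbols of homeobox, T-box, Sim and Pax families, and 43 were tested: 10 (6 without ozone 16) rose, 15 fell and 18 were not called, with a median of −0.29 (5 rose and 18 fell with total-read scaling). The risen share, 23.3%, was near that of all genes and the fallen share was 34.9%. Emx2, a homeobox factor, lay between 78.4 and 155 (median 107) in air and at 4.47, 26.3, 0, 24.3 and 1.07 after ozone (−4.19 ± 0.73, adjusted p = 0.000793), so every ozone library was below every air library. Sim1, a basic helix-loop-helix factor, lay between 158 and 369.6 (median 248) in air and at 11.2, 78.9, 6.48, 29.8 and 15.0 after ozone (−3.56 ± 0.48). Its groups did not overlap, and ozone 15 was again the nearest to air. Six2, a homeobox factor, went the other way, between 1.87 and 8.4 (median 3.66) in air and 122, 21.2, 126, 22.1 and 44.9 after ozone (3.43 ± 0.50). Its relative Six4, which acts in myogenic gene programs, fell by 1.39. Of 15 tested Hox genes, the homeobox factors laid out along the body and limb axes, 4 rose and 2 fell, a share of calls no higher than over all genes. The neighbours of the HoxD cluster rose without overlap: Hoxd8 (2.21 ± 0.35), Hoxd9 (2.50 ± 0.30) and Hoxd10 (3.39 ± 0.52). Hoxd9 lay between 23.4 and 59.7 (median 42.9) in air and at 152, 149, 243, 329.8 and 382 after ozone. Hoxc5 fell, from values between 81.6 and 115 (median 95.3) in air to 38.0, 35.4, 51.9, 33.1 and 44.9 after ozone (−1.23 ± 0.17). Ozone 23, whose slow-fibre genes lay mostly inside the air range, was below every air library for 15 of the 15 fallen patterning genes and above every one for 8 of the 10 risen. Over all called genes its shares were 86.4% of fallen and 88.1% of risen genes. The patterning genes were called with ozone 23 in the fit, so high counts follow in part from the selection. In the fit with the slow-fibre level as a covariate, described below, 7 of the 43 factors were called risen and 10 fallen. Over all genes that fit called 737 and 1074. Emx2 lost its call there, while Sim1, Six2, Six4, Hoxc5, Hoxd8, Hoxd9 and Hoxd10 kept theirs. A patterning difference apart from fibre type was not tested in any other way. Sox6, a repressor of slow-fibre genes that was also named after its values were seen, rose by 1.47 ± 0.31. Whether the 2 groups of libraries came from the same part of the same muscle was not tested.

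**Figure D3:**
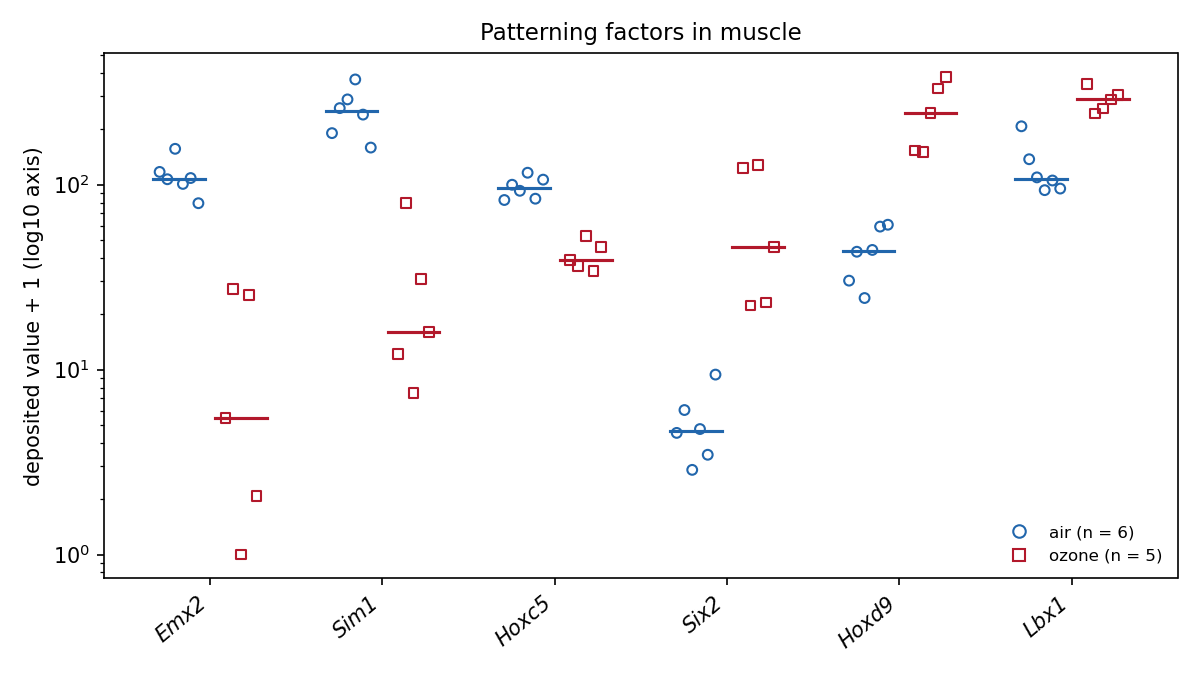
Deposited values plus 1 of 6 patterning factors in each muscle library on a log10 axis, chosen after the values were seen; circles are air, squares ozone and bars group medians. Emx2, Sim1 and Hoxc5 are lower in all 5 ozone libraries than in any air library, and Six2, Hoxd9 and Lbx1 higher.

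Genes of connective tissue and nerve had lower values after ozone. Of 52 extracellular matrix genes (55 listed) 34 fell and 0 (1 without air 3) rose, with a median of −1.03, and 12 had no overlap. The collagen gene Col3a1 lay between 31825 and 87302 (median 61306) in air and at 30147, 33961, 9141, 12425 and 10901 after ozone (−1.83 ± 0.37). Ozone 15 lay inside the air range, ozone 13 just below it and the other 3 ozone libraries well below. Decorin, Dcn, a proteoglycan that binds collagen, lay between 9853 and 38209 (median 16253) in air and at 4071, 7390.0, 2942, 2598 and 3181 after ozone (−2.22 ± 0.34), with no overlap. Lox, the enzyme that cross-links collagen, fell by 2.21, and Thbs4, a matrix protein of tendon, by 2.30. Of 11 tested markers of fibroblasts and fibro-adipogenic progenitors (14 listed) 9 fell, and their summed value ran from 79123 to 253649 in air and from 24987 to 88596 after ozone. Of 9 Schwann cell markers (11 listed) 6 fell, with sums of 1951 to 4004 in air and 509.9 to 1193 after ozone. Of 5 tested mast cell markers (8 listed) 4 fell, among them the protease gene Cpa3 (−2.07 ± 0.31).

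Markers of the other resident cells were called less uniformly. Of 13 endothelial markers (15 listed) 6 fell and 2 (1 without ozone 13 or 16) rose, with Kdr, the main VEGF receptor, at −0.99 ± 0.16 (0 rose and 9 fell with total-read scaling). Of 13 smooth muscle and pericyte markers 6 (3 without ozone 23) fell and 0 (1 without air 3 or 9) rose. Among 11 tested macrophage markers (15 listed) 2 (0 without ozone 16, 23 or 24, 1 without air 2 or 11, 4 without ozone 15) fell and 0 rose, and the summed value ran from 2195 to 5233 in air and from 1657 to 3605 after ozone (0 rose and 5 fell with total-read scaling). The log2 fold changes of these macrophage markers were all negative, between −0.80 and −0.17 with a median of −0.65. Of the neutrophil markers 2 of 12 listed reached the minimum mean and neither was called, so an influx of neutrophils was not detectable here. Of 8 satellite cell markers 2 rose and 3 fell (1 rose and 4 fell with total-read scaling), and Pax7, which defines these muscle stem cells, was not called (−0.31 ± 0.39, adjusted p = 0.54). The part of these cells in the gene groups below was not tested.

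Among single genes with a mean of at least 50, the highest fold changes belonged to secreted, structural, stress and transport genes. Ostn, which encodes the secreted peptide osteocrin (musclin), lay between 5.61 and 26.2 (median 19.5) in air and at 2434, 263, 348, 312 and 692 after ozone (4.99 ± 0.54, adjusted p = 3.40e-05). The lowest ozone library was far above the highest air library, and ozone 13 was the highest by a wide margin. Mical2, an enzyme that oxidises actin, lay between 112 and 534 (median 248) in air and at 7457, 3680.3, 5917, 5314 and 10519 after ozone (4.56 ± 0.37). Slc7a8, an exchanger of neutral amino acids, lay between 257 and 466 (median 363) in air and at 5089.8, 3981, 3639, 4179.9 and 6127 after ozone (3.66 ± 0.17, adjusted p = 2.07e-08). Both genes were separate in every library. Fam134b, a receptor for autophagy of the endoplasmic reticulum, rose by 4.54 ± 0.93 with overlapping groups, and Igfn1, a Z-disc protein, by 3.34 ± 0.70 with ozone 13 inside the air range. Cdhr3, a cadherin-related protein, rose by 3.12 ± 0.33, Arrdc2, an arrestin-domain protein, by 3.17 ± 0.48, and Prom2, a membrane glycoprotein, by 3.08 ± 0.24.

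Among the 12 lowest, Myl2, Tpm3 and Myom3 belong to the slow apparatus and Emx2 and Sim1 to the patterning factors. Zfp385b, a zinc-finger protein, lay between 75.6 and 277 (median 121) in air and at 4.47, 17.2, 7.56, 8.83 and 2.14 after ozone (−4.10 ± 0.42, adjusted p = 1.95e-05). Its groups did not overlap. Lipg, endothelial lipase, lay between 146 and 228 (median 194) in air and at 5.58, 48.5, 18.4, 26.5 and 4.28 after ozone (−3.58 ± 0.48). Rspo3, an enhancer of WNT signalling, fell (−3.73 ± 0.66), as did Lgi1, a secreted leucine-rich protein (−3.75 ± 0.70), and Wisp2, a matricellular protein (−3.58 ± 0.64). The mitochondrial carrier gene Slc25a52 fell by 3.68, with 1 ozone library inside the air range. Hspa1b, an inducible HSP70, was at 0 in 3 of 5 ozone libraries and ran from 0 to 619 in air, and its call (adjusted p = 0.0383) was lost without air 2, 3, 4, 7 or 9 or ozone 13, 15 or 24 (adjusted p = 0.0693 to 0.104).

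Genes known to respond to glucocorticoids were higher after ozone. All 36 listed genes were tested: 27 rose and 2 (1 without ozone 24) fell, 23 had every ozone library above every air library, and the median log2 fold change was 1.55. Fkbp5, a co-chaperone that restrains the glucocorticoid receptor and is among its standard targets, lay between 404 and 2181 (median 785) in air and at 4690.0, 6037, 3937, 5069 and 5942 after ozone (2.75 ± 0.35, adjusted p = 0.000104). No ozone library overlapped with air. The zinc-finger factor Zbtb16 lay between 433 and 886 (median 553) in air and at 3146, 2506, 2173, 3095 and 3027 after ozone (2.20 ± 0.17). Ddit4 (REDD1), an inhibitor of mTORC1, lay between 119.7 and 417 (median 304) in air and at 6020.2, 2828, 4745, 4100.5 and 4313 after ozone (4.12 ± 0.30, adjusted p = 2.13e-06). These 3 were separate in every library. Per1, a clock gene with a glucocorticoid-responsive promoter, rose by 1.77 ± 0.24, Klf9 by 1.02 ± 0.13 and Klf15, which drives amino acid breakdown genes, by 1.67 ± 0.21. The cell-cycle inhibitor Cdkn1a lay between 137 and 642 (median 315) in air and at 3448, 2318, 3037, 1913 and 1602 after ozone (2.85 ± 0.34). Sesn1, a sestrin that restrains mTORC1, rose by 1.59 ± 0.18. Tsc22d3 (GILZ), an anti-inflammatory target, had 0.51 ± 0.19 with overlapping groups (adjusted p = 0.039), a call lost without air 2, 4, 7 or 11 or ozone 13, 15, 16 or 24 (adjusted p = 0.0619 to 0.0861). Neither edgeR, DESeq2 nor total-read scaling called Tsc22d3.

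The 2 members that fell were Dusp1, a phosphatase of MAP kinases (−1.16 ± 0.32), and Tle3, a co-repressor (−0.52 ± 0.16), whose call was lost without ozone 24 (adjusted p = 0.0594). Nr3c1, the glucocorticoid receptor itself, fell by 0.53 (adjusted p = 0.0147), with all ozone libraries, at 1999, 1895, 2446, 2333 and 2308, below air, between 2615 and 4714 (median 2886). Of 13 tested genes of the receptor and its chaperones (14 listed) 2 rose and 4 (2 without ozone 16, 23 or 24) fell, Hsp90aa1 among the latter (−1.82 ± 0.50). Ozone 23, with slow-fibre genes mostly inside the air range, lay above every air library for 26 of the 27 risen glucocorticoid genes, and ozone 15 for 24. These are 96.3% and 88.9%, against 88.1% and 74.3% over all risen genes. Both libraries were in the fit that made the calls, so high counts follow in part from the selection. After the data were seen, a fit was added that carries each library's mean slow-fibre level as a covariate. It called 737 genes risen and 1074 fallen over all genes, and among glucocorticoid genes 22 risen and 0 fallen with a median of 1.38. In the same fit 22 of 52 matrix genes were fallen (34 without the covariate) and 5 of 14 fast-fibre genes risen (13 without it). Risen calls over all genes were 737 in this fit against 2816 without the covariate. Other lists also had fewer risen calls: 0 against 18 for complexes II to V and 2 against 19 for excitation and calcium release. They were 3 against 25 for cytosolic ribosomal proteins, 7 against 31 for mitochondrial ribosomal proteins and 4 against 21 for general sarcomere genes. They were 2 against 11 for heat shock, 2 against 12 for complex I, 4 against 14 for the citric acid cycle, 3 against 10 for mTOR and 5 against 15 for amino acid metabolism. They were 11 against 32 for ribosome assembly, 7 against 17 for the proteasome and 6 against 15 for autophagy. For glycolysis and glycogen they were 12 against 27, and for ubiquitin-dependent breakdown 8 against 15. From ribosome assembly to ubiquitin-dependent breakdown, and for the citric acid cycle, mTOR and amino acid metabolism, these ratios were higher than over all genes. Calls were also lost, with the value moved by over 1.5 times, for Emx2 (−1.97, adjusted p = 0.119), Rspo3 (−1.07, adjusted p = 0.0869), Lgi1 (−1.07, adjusted p = 0.184), Mybpc1 (adjusted p = 0.0642), Myom3 (−0.11, adjusted p = 0.884), Mstn (0.85, adjusted p = 0.224), Lpl (−0.77, adjusted p = 0.0982), Pdp2 (−0.73, adjusted p = 0.273), Myog (−0.90, adjusted p = 0.103), Hspb6 (−0.34, adjusted p = 0.372), Odc1 (−0.19, adjusted p = 0.606), Ube2d1 (−0.77, adjusted p = 0.0716), Mt1m (1.85, adjusted p = 0.216), Slc39a13 (0.28, adjusted p = 0.366) and Hspa1b (−1.69, adjusted p = 0.624), besides the slow-fibre genes that make up the covariate. Further named genes lost their call in this fit with a smaller move of the value. Among them were Fbxo32 (1.29, adjusted p = 0.163), Nr3c1 (−0.60, adjusted p = 0.124), Dusp1 (−1.35, adjusted p = 0.0817) and Hsp90aa1 (−2.08, adjusted p = 0.0882). Pvalb (1.37, adjusted p = 0.0937), Actn3 (0.99, adjusted p = 0.0982), Sox6, Amd1, Irs1, Irs2 and Slc25a52 were others. Since the covariate itself differs between the groups, this fit has less power, and it does not separate exposure from other differences in muscle makeup.

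**Figure D4:**
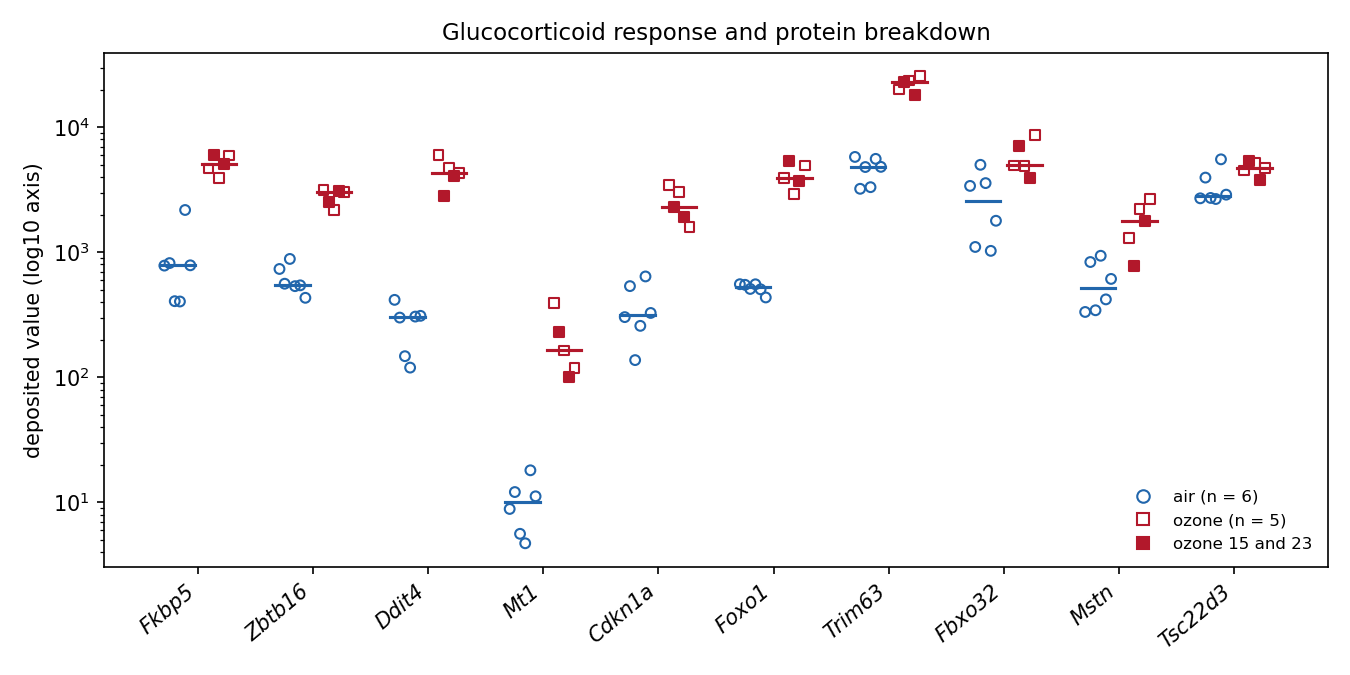
Deposited values of 10 genes of the glucocorticoid response and of protein breakdown in each muscle library on a log10 axis; circles are air, squares ozone and bars group medians, and filled squares mark ozone 15 and 23. Ozone libraries lie above all air libraries for each gene but Fbxo32, Mstn and Tsc22d3, whose groups overlap.

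Metallothioneins, small proteins that bind zinc and copper and are induced by metals and glucocorticoids, were among the highest fold changes. Mt1 lay between 4.71 and 18.1 (median 10.0) in air and at 394, 229.6, 164, 101 and 119.7 after ozone (4.13 ± 0.37, adjusted p = 6.64e-06). Mt2A lay between 8.48 and 62.4 (median 28.6) in air and at 536, 399, 312, 153 and 205 after ozone (3.45 ± 0.47). Neither had overlapping groups, and in both the highest ozone libraries were 13 and 15. Over the 19 tested genes of zinc handling 5 rose and 6 fell (3 rose and 8 fell with total-read scaling). The 5 risen were Mt1, Mt2A, another metallothionein, Mt1m (2.78 ± 0.67), and the zinc transporters Slc39a13 (0.55 ± 0.14) and Slc39a3 (0.44 ± 0.14). Neither transporter was called with total-read scaling, and the Slc39a3 call was lost without ozone 13 (adjusted p = 0.0568). The 6 fallen were all zinc transporters, among them the importer Slc39a10, which fell by 1.39, and Slc39a6 (−0.79 ± 0.18).

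Ubiquitin ligases and Foxo factors of muscle breakdown were among the genes that rose. Of 30 tested genes of ubiquitin-dependent breakdown (32 listed) 15 rose and 1 (0 without air 3, 7 or 9 or ozone 13, 15, 23 or 24) fell, median 0.37, while 9 rose and 4 fell with total-read scaling. Trim63, the ligase MuRF1 that targets myosin and other thick-filament proteins, lay between 3222 and 5794 (median 4818) in air and at 20011, 23039.7, 23641, 18232 and 25548 after ozone (2.29 ± 0.17, adjusted p = 1.63e-06). Foxo1, the transcription factor that insulin keeps out of the nucleus, lay between 436 and 556 (median 529.8) in air and at 3907, 5352, 2911, 3717 and 4941 after ozone (2.97 ± 0.15, adjusted p = 3.30e-08). The lowest ozone library was several times the highest air library for both. Foxo3 rose by 1.43 ± 0.21, and Fbxo31, an F-box protein of a ubiquitin ligase, by 1.70 ± 0.15. Fbxo32, the ligase atrogin-1, lay between 1028 and 5011 (median 2593) in air and at 4948, 7066, 4909, 3943 and 8649 after ozone (1.34 ± 0.39, adjusted p = 0.0149), with overlapping groups and no call under total-read scaling (adjusted p = 0.0575). Ube2d1, a ubiquitin-conjugating enzyme, was the member that fell (−0.47 ± 0.18), a call lost without air 3, 7 or 9 or ozone 13, 15, 23 or 24 (adjusted p = 0.0594 to 0.113).

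Promoter sequence was looked at for Trim63, Mt2A and Ciart because each rose without overlap and its window held a motif searched. Sequences come from RefSeq, build GRCr8, matched by symbol, while the deposited values were made on rn6. Of 13043 tested genes 9250 matched. The 250 bases before the annotated start were searched on both strands for the palindromic glucocorticoid response element (an exact match to its half-sites), the E-box CACGTG, the D-box TTATGTAA, the CRE TGACGTCA, the forkhead motif TGTTTAC and the antioxidant response element TGACNNNGC. Capitals mark matches. The Trim63 window, chr5:151816986-151817235 on the plus strand, is shown because it held a glucocorticoid response element, on the minus strand from base 219 to 206 before the start, directly followed by a forkhead motif from 205 to 199, without overlap.
Trim63: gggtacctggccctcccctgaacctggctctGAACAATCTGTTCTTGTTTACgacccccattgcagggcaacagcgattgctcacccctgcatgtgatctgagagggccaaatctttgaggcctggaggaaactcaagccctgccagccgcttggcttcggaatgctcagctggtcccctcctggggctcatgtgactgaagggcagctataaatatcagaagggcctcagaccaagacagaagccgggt
The glucocorticoid element was found in 9 of 27457 rat promoters (0.0328%) and the forkhead motif in 3.25%. Trim63 and 1 other tested gene, whose level was not called, were the only ones among the 9250 with this element. None of 32 matched glucocorticoid-list genes had it in this window, and no match says only that these letters are not there. The Mt2A window, chr19:10838709-10838958 on the minus strand, held an antioxidant response element from base 237 to 229 and an E-box from 202 to 197 before the start.
Mt2A: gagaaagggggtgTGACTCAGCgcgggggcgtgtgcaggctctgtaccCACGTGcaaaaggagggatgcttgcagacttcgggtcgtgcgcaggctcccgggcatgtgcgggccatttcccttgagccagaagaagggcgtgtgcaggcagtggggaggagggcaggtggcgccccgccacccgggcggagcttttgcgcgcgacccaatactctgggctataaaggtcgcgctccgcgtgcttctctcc
These motifs were found in 10.2% and 5.79% of all promoters. A match is a description of the letters, not of binding.

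Proteasome, autophagy and mTOR genes were described by the same lists. Of 44 proteasome genes 17 rose and 0 (1 without air 2) fell, median 0.37 (7 rose and 3 fell with total-read scaling). Psmb6, a catalytic subunit, lay between 38.7 and 106 (median 62.6) in air and at 262, 151, 249.6, 140.1 and 173 after ozone (1.63 ± 0.26), and Adrm1, a ubiquitin receptor, rose by 1.07 ± 0.15. Of 47 autophagy genes (51 listed) 15 rose and 4 fell, median 0.22. With total-read scaling 4 rose and 12 fell, a somewhat higher share of risen calls than over all genes. Map1lc3b and Gabarapl1, which coat autophagosomes, rose by 1.43 ± 0.15 and 1.74 ± 0.19, whereas Lamp2 of the lysosome membrane fell by 0.86. Of 28 mTOR pathway genes (30 listed) 10 rose and 2 fell (5 rose and 4 fell with total-read scaling). Besides Ddit4 and Sesn1, the translation repressor Eif4ebp1 lay between 118 and 320.0 (median 209) in air and at 637, 646, 810.2, 601 and 681 after ozone (1.74 ± 0.20), with no overlap. Mstn, the secreted growth inhibitor myostatin, lay between 334 and 939 (median 517) in air and at 1310.2, 782, 2214, 1797 and 2665 after ozone (1.59 ± 0.34, adjusted p = 0.00277). Only ozone 15 was inside the air range. The growth factor Igf1 was not called (−0.82 ± 0.36, adjusted p = 0.076).

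Many genes that build ribosomes rose, most by less than 2-fold. Of 72 nucleolar ribosome-assembly genes 32 rose and 1 (0 without ozone 16 or 24) fell, median 0.36 (11 rose and 9 fell with total-read scaling). Bysl, needed for the small subunit, rose by 1.01 ± 0.16. Of 73 cytosolic ribosomal protein genes (80 listed) 25 (15 without ozone 16, 16 without ozone 13) rose and 0 (1 without ozone 15, 2 without air 7) fell, median 0.39 (11 rose and 5 fell with total-read scaling). Of 72 mitochondrial ribosomal protein genes (76 listed) 31 (18 without ozone 16) rose and 0 (1 without air 11) fell, median 0.55 (9 rose and 2 fell with total-read scaling). Mrpl41, of the large mitochondrial subunit, lay between 50.9 and 199 (median 119) in air and at 975, 499, 979.9, 435 and 692 after ozone (2.62 ± 0.32), a larger change than in the other members. Many ribosomal protein genes have processed copies elsewhere in the genome, so their counts are uncertain.

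More genes of glycogen and glycolysis rose than fell. Of 46 glycolysis and glycogen genes 27 rose and 9 fell, median 0.75. Ppp1r3c, which brings phosphatase to glycogen and favours its synthesis, lay between 5284 and 12402 (median 6404) in air and at 58215, 61829, 56284, 47353 and 62514 after ozone (3.02 ± 0.21, adjusted p = 1.11e-06). Pfkfb4, which sets the level of the glycolytic activator fructose-2,6-bisphosphate, lay between 125 and 169 (median 145) in air and at 878, 1015, 1105, 1112 and 1228 after ozone (2.84 ± 0.13, adjusted p = 1.63e-08). Both groups were tight and far apart, and these 2 had among the lowest adjusted p-values in the table. Prkag3, the AMP-kinase subunit of glycolytic fibres, rose by 1.81 ± 0.20, and several glycolytic enzymes are themselves more abundant in fast fibres, whose share was not tested. The glucose transporters went apart: Slc2a4 (GLUT4), the insulin-responsive one, rose by 0.55 ± 0.14 (not with total-read scaling, adjusted p = 0.172) and Slc2a1 (GLUT1) fell by 1.89. Hexokinase 2, Hk2, was not called (0.02 ± 0.13, adjusted p = 0.921).

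Pdk4, which shuts pyruvate out of the mitochondrial oxidation step, lay between 4728 and 16631 (median 9145) in air and at 20414, 31550.2, 25136, 27900.2 and 27259 after ozone (1.57 ± 0.27, adjusted p = 0.000722), without overlap. Of 14 genes of this step 5 rose and 2 (1 without air 4 or 9 or ozone 13, 23 or 24) fell, but 3 rose and 5 fell with total-read scaling. The phosphatase Pdp2, which reverses the action of Pdk4, fell by 1.46. Of 54 lipid genes (56 listed) 8 rose and 10 fell, median −0.07, both shares below those of all genes, but 4 rose and 22 fell with total-read scaling, a fallen share no longer below that of all genes. Ucp3, a mitochondrial carrier raised by fatty acids, lay between 2024 and 7194 (median 3484) in air and at 22585, 21586, 22895, 25532 and 24577 after ozone (2.77 ± 0.24). The ozone libraries lay within a narrow band well above air. Plin4, a lipid droplet coat protein, rose by 1.91 ± 0.15, while Lpl, the lipase that takes up blood triglyceride, fell by 1.56. Angptl4, an inhibitor of Lpl that responds to fatty acids and glucocorticoids, was not called (0.23 ± 0.32).

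In amino acid metabolism and mitochondria more genes rose than fell. Of 30 amino acid metabolism genes (33 listed) 15 rose and 4 (2 without ozone 23) fell, median 0.40. The counts were 5 and 5 with total-read scaling, still a higher share of risen calls than over all genes. Glul, glutamine synthetase, which exports amino nitrogen from muscle, lay between 8582 and 24098 (median 12251) in air and at 36544, 41707, 38135, 35434 and 43803 after ozone (1.53 ± 0.23, adjusted p = 0.000234). Gpt2, which makes alanine, rose by 1.73 ± 0.21, and Asns, asparagine synthetase, fell by 1.18. The amino acid transporters had 6 risen and 10 fallen of 30 (3 rose and 11 fell with total-read scaling), with Slc7a8 above and Slc7a6 (1.77 ± 0.18) as the leading risen genes. Of 24 citric acid cycle genes (27 listed) 14 rose and 2 fell, median 0.44, but 5 rose and 2 fell with total-read scaling. Of 36 complex I genes (38 listed) 12 rose and 1 fell, median 0.52 (7 rose and 1 fell with total-read scaling). Of 49 genes of complexes II to V (66 listed) 18 (11 without ozone 16) rose and 0 (2 without air 7) fell, median 0.46. With total-read scaling 7 rose and 7 fell, still a higher share of risen calls than over all genes. Of the 12 tested transcripts of the mitochondrial genome only Mt-nd6 was called (0.57 ± 0.20, adjusted p = 0.0334), a call lost without air 3, 9 or 11 or ozone 15, 16, 23 or 24 (adjusted p = 0.0515 to 0.0971) and with edgeR or total-read scaling. The share of mitochondrial transcripts among all reads ran from 10.4% to 14.9% in air and from 6.72% to 12.2% after ozone. The coactivator of mitochondrial growth, Ppargc1a, was not called (0.38 ± 0.19, adjusted p = 0.114).

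Clock genes moved in both directions. Of 25 tested clock genes (28 listed) 9 rose and 6 fell, median 0.38. With total-read scaling 6 rose and 10 fell, still a higher share of risen calls than over all genes. Arntl (BMAL1), the positive arm of the clock, lay between 213 and 296 (median 221) in air and at 650.1, 524, 712, 537 and 398 after ozone (1.20 ± 0.16, adjusted p = 0.000123), with no overlap. Nr1d2, a nuclear receptor that represses Arntl, fell by 1.08. Bhlhe40, a repressor of that arm, lay between 1963 and 3761 (median 2885) in air and at 793, 1223, 845, 907 and 929.9 after ozone (−1.62 ± 0.16), and no ozone library reached the air range. Dbp, an output of the clock, fell with overlapping groups (−0.95 ± 0.31, adjusted p = 0.0235), a call lost without ozone 13 or 16 (adjusted p = 0.0559 to 0.0641), and the repressor Nr1d1 was not called (0.28 ± 0.15, adjusted p = 0.148). Csnk1d, the kinase that marks period proteins for breakdown, rose by 0.95 ± 0.12. Ciart, a repressor of Arntl activity, lay between 12.4 and 42.7 (median 17.7) in air and at 101, 169.9, 85.3, 86.0 and 184 after ozone (2.46 ± 0.32). It is shown because its window, chr2:186112247-186112496 on the minus strand, held 3 E-boxes, starting 93, 35 and 21 bases before the start.
Ciart: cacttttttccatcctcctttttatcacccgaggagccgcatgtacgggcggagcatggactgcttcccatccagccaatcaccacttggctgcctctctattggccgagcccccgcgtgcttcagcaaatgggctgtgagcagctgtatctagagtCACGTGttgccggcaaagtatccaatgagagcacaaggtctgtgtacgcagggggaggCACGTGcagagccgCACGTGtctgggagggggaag
At least 1 E-box was found in 5.79% of all promoters, in 8.12% of those of tested genes, in 9.65% of those of risen genes and in 4 of 18 matched clock genes. The labels do not state the hour of collection, so time of day cannot be told apart from exposure.

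In gene groups of activity, nerve contact and growth more members fell than rose. Of 38 immediate early genes (40 listed) 7 rose and 17 fell, median −0.55. Nr4a1, an orphan nuclear receptor, lay between 2314 and 4906 (median 3249) in air and at 16622, 10012, 12320.0, 8374 and 10932 after ozone (1.80 ± 0.21), all above air. Dusp6, which switches off ERK kinase, fell by 1.42, and Fos was not called (−1.06 ± 0.61, adjusted p = 0.171). Of 27 genes of the neuromuscular junction and denervation (29 listed) 6 (3 without ozone 13) rose and 13 fell, median −0.58 (1 rose and 17 fell with total-read scaling). Chrna1, the alpha subunit of the acetylcholine receptor, lay between 310.5 and 419 (median 376) in air and at 91.6, 92.0, 38.9, 131 and 36.3 after ozone (−2.39 ± 0.29, adjusted p = 6.36e-05). The groups were apart by more than 2-fold at their closest. Myogenin, Myog, fell by 1.42, and MyoD, Myod1, by 1.92. Of 32 myogenic genes (36 listed) 7 rose and 10 fell. With total-read scaling 3 rose and 12 fell, shares near those over all genes. Of 27 tested cell-cycle genes (35 listed) 10 fell and 1 rose, the helicase subunit Mcm7 (0.86 ± 0.18), while the cyclin Ccnd1 fell by 2.67 (1 rose and 18 fell with total-read scaling). Of 25 genes of adrenergic and cAMP signalling (28 listed) 4 rose and 8 fell. With total-read scaling 3 rose and 10 fell, a fallen share near that over all genes.

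Among secreted factors more genes fell than rose. Of 22 tested myokine genes (30 listed) 4 rose and 10 fell, median −0.72. Apln, the vasoactive peptide apelin, lay between 110.0 and 364 (median 143) in air and at 26.8, 48.5, 63.7, 37.5 and 36.3 after ozone (−1.95 ± 0.30), all below air. Erfe, the iron-regulating hormone erythroferrone (myonectin), lay between 1.89 and 7.98 (median 4.8) in air and at 23.5, 21.2, 9.72, 24.3 and 18.2 after ozone (1.91 ± 0.38), all above air but at low values. Of 38 genes of hypoxia and vessel growth (40 listed) 7 rose and 15 fell. Nrp2, a VEGF co-receptor, fell by 2.34, and Kdm3a, a histone demethylase, rose by 1.41 ± 0.12.

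More immune genes fell than rose. Of 40 tested inflammatory mediators (56 listed) 3 (5 without air 9) rose and 19 fell, median −0.60 (1 rose and 26 fell with total-read scaling). Cxcl12, a chemokine made by stromal cells, lay between 2280.2 and 4810.0 (median 3241) in air and at 1163, 984, 1262, 1360.2 and 1051 after ozone (−1.56 ± 0.18, adjusted p = 3.72e-05). Tlr4, the receptor for bacterial lipopolysaccharide, fell by 2.05, and Selp, which lets leukocytes roll on vessel walls, by 2.94. The 3 risen members, Tnip1, Nfkbib and Nfkbia, all encode inhibitors of NF-kappaB signalling (0.51 ± 0.12, 1.18 ± 0.28 and 0.70 ± 0.25). Tnip1 and Nfkbia were not called with total-read scaling, and the Nfkbia call was lost without air 2, 4 or 7 or ozone 13, 16 or 23 (adjusted p = 0.0588 to 0.0863). Il6 was not analysed here. Of 39 interferon-stimulated genes (45 listed) 0 (1 without air 3 or 4, 2 without air 11) rose and 20 fell, median −0.66. Gbp2, a guanylate-binding protein, lay between 236 and 461 (median 265) in air and at 77.1, 90.0, 111, 72.8 and 64.1 after ozone (−1.80 ± 0.19, adjusted p = 1.88e-05), all below air. Of 25 antigen presentation genes (28 listed) 2 (1 without air 4 or 7 or ozone 13 or 16) rose and 12 fell (0 rose and 18 fell with total-read scaling). Both risen members, RT1-CE10 (0.74 ± 0.21) and RT1-A2 (0.79 ± 0.26), belong to the class I family, whose near-identical copies make single counts uncertain. Neither was called with total-read scaling, and the RT1-A2 call was lost without air 4 or 7 or ozone 13 or 16 (adjusted p = 0.0518 to 0.0741). Several of these genes are expressed by the connective tissue and vessel cells whose markers also fell, and their part in these counts was not tested.

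In the antioxidant response more genes fell than rose, and heat shock genes went both ways. Of 43 genes of the NRF2 antioxidant response (49 listed) 5 rose and 12 fell, median −0.25 (1 rose and 20 fell with total-read scaling). Hmox1, heme oxygenase, lay between 51.4 and 131 (median 86.9) in air and at 87.1, 111, 61.6, 48.5 and 54.5 after ozone (−0.26 ± 0.28, adjusted p = 0.478), and its groups overlapped. Blvrb, biliverdin reductase B, fell by 1.47. Of 50 heat shock genes 11 (5 without ozone 16, 7 without ozone 23) rose and 10 (6 without air 3) fell, shares close to those over all genes. With total-read scaling 1 rose and 19 fell, where 8.52% of all genes rose and 38.3% fell. Among the called members, Hspe1, a mitochondrial chaperonin, was at 1.46 ± 0.28 and Hspb6, a small heat shock protein, at −1.15 ± 0.24. Of 40 genes of the unfolded protein and ATF4 response (45 listed) 4 rose and 7 fell, both shares below those over all genes, but 3 rose and 16 fell with total-read scaling, a fallen share no longer below that of all genes. In polyamine synthesis 7 of 17 tested genes (20 listed) rose and 2 (1 without air 3, 9 or 11 or ozone 16) fell (5 rose and 4 fell with total-read scaling): Amd1, which makes decarboxylated S-adenosylmethionine, rose (0.93 ± 0.17) and Odc1, ornithine decarboxylase, fell (−0.54 ± 0.16).

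**Figure D5:**
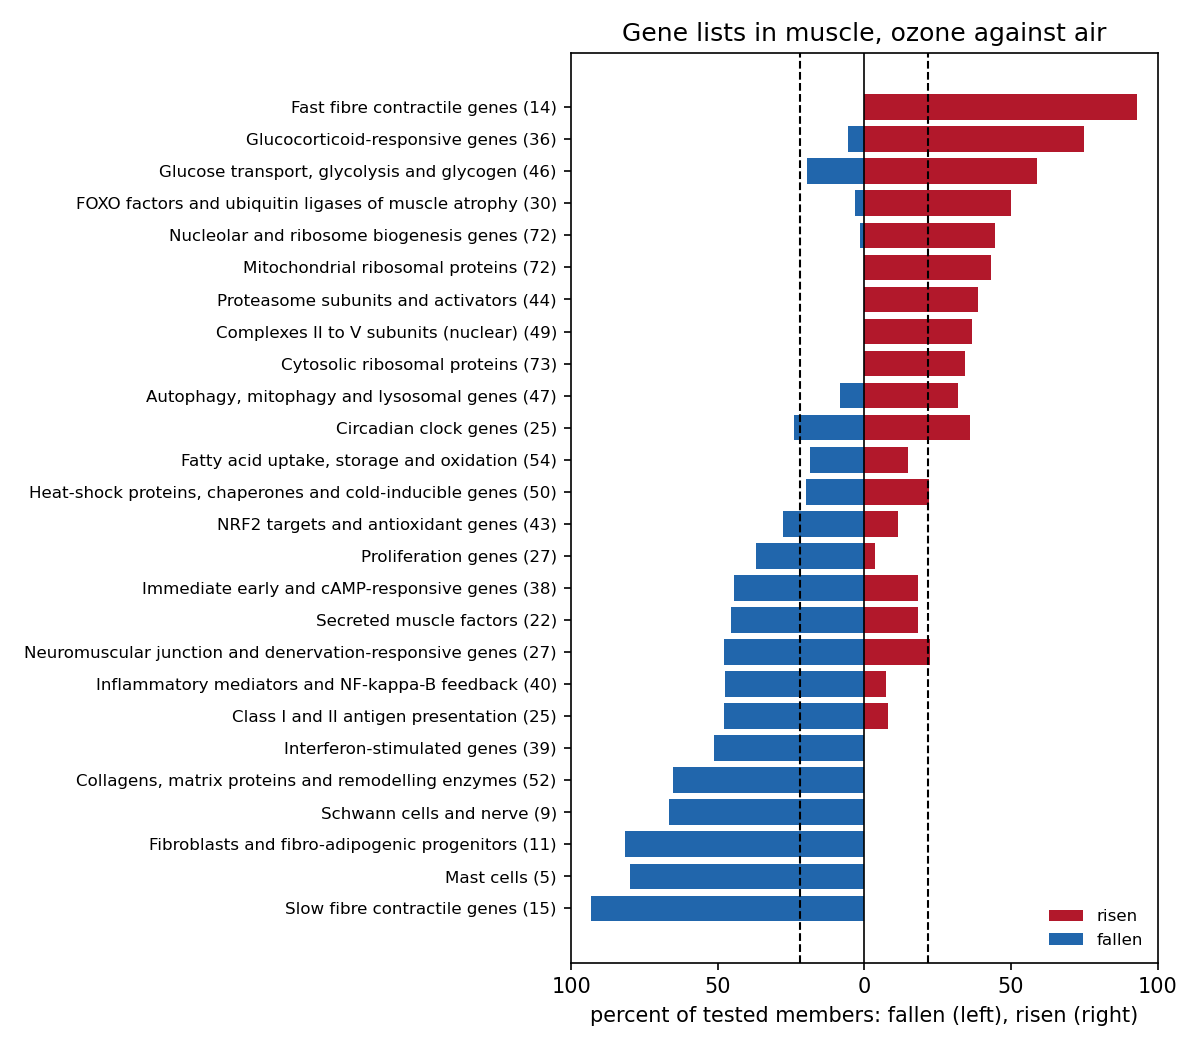
Share of tested members that rose (right) and fell (left) after ozone for 26 gene lists, with the number tested in brackets. Dashed lines mark the shares over all 13043 genes, 21.6% risen and 22.1% fallen; fast-fibre and glucocorticoid lists lie far to the right and slow-fibre, mast cell, fibroblast and matrix lists far to the left.

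The same genes were followed in the other 5 tissues, where values were normalised apart, so fold changes are set side by side and differences between tissues were not tested. Genes differing between exposures made up 17.7% of those tested in lung, 11.5% in liver, 18.6% in adrenal gland, 1.41% in hypothalamus and 7.32% in adipose tissue. Of the 12 genes with the highest fold changes in muscle, lung had 6 risen among 10 tested, hypothalamus 4 among 8, adipose tissue 3 among 9, liver 2 among 7 and adrenal gland 1 among 7. Of the 12 lowest, adrenal gland had 3 fallen among 7 tested, liver 1 among 5, lung 1 among 8, and hypothalamus and adipose tissue 0 among 9 each. Of these highest and lowest genes, some went the opposite way only in adrenal gland. There Mical2 (−0.71 ± 0.21) and Mt2A of the highest fell and Wisp2 of the lowest rose (2.49 ± 0.42). Among the fixed marker genes, Odc1, which fell in muscle, rose in lung (1.17 ± 0.11) and liver (0.82 ± 0.10). Amd1, which rose in muscle, fell in adrenal gland (−0.96 ± 0.26) and rose in liver (1.83 ± 0.20) and adipose tissue (0.70 ± 0.17). Fkbp5 rose in lung (2.94 ± 0.32), liver (2.86 ± 0.19), adrenal gland (0.60 ± 0.14), hypothalamus (1.90 ± 0.20) and adipose tissue (1.81 ± 0.28). Cdkn1a rose in all 5 as well, by 2.21 ± 0.11, 3.79 ± 0.21, 0.94 ± 0.18, 2.37 ± 0.21 and 2.66 ± 0.26 in the same order. Mt2A rose in lung (4.64 ± 0.36), hypothalamus (2.63 ± 0.15) and adipose tissue (4.56 ± 0.40) and fell in adrenal gland (−0.92 ± 0.27). Ostn, tested in lung and adipose tissue, was called in neither (−0.09 ± 0.24 and −0.43 ± 0.47). Slc7a8 rose in lung (0.51 ± 0.14) and adipose tissue (0.69 ± 0.17) and Trim63 rose in lung (0.62 ± 0.13) and adrenal gland (2.17 ± 0.63). Arntl rose in lung (0.70 ± 0.15), liver (0.99 ± 0.19), adrenal gland (2.43 ± 0.15) and adipose tissue (1.18 ± 0.23).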

How the data were processed

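Muscle RNA was isolated with a kit for fibrous tissue, selected for mRNA and sequenced on an Illumina NextSeq, per the labels' protocols. The deposited signal is a gene's read count divided by 1 size factor per library, a step made by the authors, as every value is a whole multiple of its library's smallest step within 0.01. Partek, DESeq2 and rn6 are named, per the submitters' processing notes, while the sources used here give no aligner, counting method, strand setting or annotation. Of 19465 entries 24 with a date for a symbol were left out.

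Differences were fitted with limma 3.58.1 in R 4.3.3 on log2(value + 1), with mean-variance trend and robust moderation, over genes with a mean of at least 10, with Benjamini-Hochberg adjustment and a threshold of 0.05. As alternatives, edgeR 4.0.16 (quasi-likelihood) and DESeq2 1.42.0 were run on the recovered reads, and other pseudocounts, filters, scalings and weights and each library's omission were tried. limma, edgeR and DESeq2 were tested on simulated data with known changes. No pair of libraries of a group agreed within sampling noise (lowest chi-square per degree of freedom 32.7). Figures were drawn with matplotlib 3.10.9.

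Named genes were the 12 highest and 12 lowest fold changes among called genes with a mean of at least 50, up to 4 members of each list with the lowest adjusted p, a fixed set of marker genes of the response, and members that moved against their list where 5 or fewer did. Actn3, Atp2a2, Casq1, Hoxc5, Hoxd8, Hoxd9, Hoxd10, Lox, Mb, Pax7, Pvalb, Six2, Sox6, Tnnc1, Tnni1 and Tnnt1 fall outside this rule and were chosen after their values were seen. The groups and gene lists were chosen with earlier results of these data known. No list was given a test of its own. Some named genes are not reported here.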

Additional observations from a re-analysis of the deposited data

Results flagged for a closer look

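Single libraries that stood apart within their group were looked for in the named genes and in measures of the whole library. The gap of the highest or lowest library to its nearest neighbour, on the log2(value + 1) scale for genes, was divided by the range of the group and compared with Dixon's critical value. Chance marks about 1 in 20 groups, and 8 of 326 groups of gene values were marked. In air, Gbp2 was high in air 11 (461, next 280.001), Myod1 high in air 3 (269, next 151), Klf15 low in air 7 (112, next 202), Mt1m low in air 4 (0, next 8.48), Slc39a13 low in air 9 (149, next 195) and Tle3 low in air 4 (174, next 217). After ozone, Kdm3a was high in ozone 24 (2532, next 1795) and Slc39a10 low in ozone 13 (99.4, next 121). None of these libraries crossed into the range of the other exposure for Gbp2, Kdm3a, Klf15, Mt1m, Myod1, Slc39a13 or Slc39a10, and for Tle3 the groups overlapped. On the first principal component air 7 lay at −69.1 and the next air library at −41.9, on the side away from ozone.

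Sesn1, a sestrin that restrains mTORC1, rose in muscle (1.59 ± 0.18) with every ozone library above every air library. In adrenal gland it had a log2 fold change of −0.33 ± 0.11 with every ozone library below every air library, and was not called (adjusted p = 0.0657). The difference between the tissues was not tested.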

How the results depend on the processing

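The 2816 risen and 2886 fallen genes of limma became 2629 and 3050 with edgeR and 2830 and 3168 with DESeq2 on recovered reads. Pseudocounts, filters, library weights, plain moderation, TMM and upper-quartile scaling each kept both counts within 1.5 times. Without 1 library at a time, 4756 to 5727 genes were called, 2278 to 2837 risen and 2478 to 2890 fallen, and no gene called with all libraries was called the opposite way under any setting. Scaling to equal total reads gave 1117 risen and 5022 fallen genes. With the slow-fibre level as a covariate, chosen after seeing the data, 1811 genes were called, 737 risen and 1074 fallen. In that fit Myh7, Tnnc1, Tnni1 and Tnnt1 turned to 0.39, 0.19, 0.35 and 0.58, none called, as these genes make up the covariate. Of 163 named genes 45 lost their call there and 104 kept it. In the other settings 144 kept their side of the threshold, 16 lost a call in at least 1, 3 (Casq1, Igf1 and Mb) gained one, and 0 reversed. No paired analysis was possible because the air and ozone titles share no number. Genes near the minimum mean have few reads, and markers under it were not tested.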

Other observations

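Gene lists not described above moved in parts. Of 34 tested genes of insulin and IGF signalling (36 listed) 9 rose and 7 fell, while 1 rose and 16 fell with total-read scaling. With the deposited scaling these were 26.5% and 20.6%, near the 21.6% and 22.1% over all genes. Irs1, an adaptor that passes the signal on from the insulin receptor, lay between 545 and 2322 (median 1033) in air and at 356, 208, 384, 679.6 and 379 after ozone (−1.46 ± 0.35, adjusted p = 0.00516). The groups overlapped. The second adaptor, Irs2, fell by 1.04, also with overlap, whereas Pik3r1, the regulatory subunit of PI3-kinase, lay between 659.6 and 991 (median 852) in air and at 1913, 1561, 1561, 2448 and 2929 after ozone (1.28 ± 0.18), with every ozone library above air. Of 31 genes of myostatin, activin and BMP signalling 3 rose and 10 fell, and 2 rose and 13 fell with total-read scaling. Its type I receptors moved apart: Acvr1b, the receptor of activins and myostatin, rose (1.33 ± 0.14) and Acvr1, a receptor of BMPs, fell by 0.99. Inhba, which encodes an activin subunit, fell by 2.76 and the follistatin-related gene Fstl1 by 1.30.

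In the p53 and growth-arrest list 9 of 30 tested genes (34 listed) rose and 5 (3 without air 4, 7 or 9 or ozone 16, 23 or 24) fell (7 rose and 9 fell with total-read scaling). Gadd45g, a stress-response gene, lay between 101 and 726 (median 322) in air and at 2833, 1289, 2469.6, 1981 and 1713 after ozone (2.77 ± 0.42, adjusted p = 0.00034), with no overlap. Eda2r, the receptor for ectodysplasin A2, lay between 56.7 and 168 (median 69.2) in air and at 3.35, 22.2, 3.24, 14.3 and 6.41 after ozone (−3.28 ± 0.45), also with no overlap. Bcl6, a transcriptional repressor, was the leading gene of the growth hormone, STAT and thyroid list (1.85 ± 0.21), in which 7 of 23 tested genes (27 listed) rose and 4 fell (3 rose and 9 fell with total-read scaling). Of 36 genes of cholesterol and fatty acid synthesis (38 listed) 6 rose and 10 (6 without ozone 23) fell. These were 16.7% and 27.8%, against 21.6% and 22.1% over all genes. With total-read scaling 2 rose and 15 fell, a fallen share near that over all genes. Scd2, a fatty acid desaturase, fell by 2.05, and the cholesterol exporters Abca1 and Abcg1 by 1.59 and 1.74, while Lss, lanosterol synthase, rose (0.82 ± 0.17).

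Of 27 tested genes of mitochondrial growth and dynamics (29 listed) 8 rose and 4 (2 without air 4 or ozone 13) fell, but 3 rose and 10 fell with total-read scaling. Esrra, a nuclear receptor of mitochondrial genes, rose by 0.82 ± 0.18, and Polg, the mitochondrial DNA polymerase, by 0.66 ± 0.12. Among 43 translation factors (45 listed) 12 rose and 4 fell. With total-read scaling 5 rose and 11 fell, still a higher share of risen calls than over all genes. Eef2k, the kinase that slows elongation, lay between 2284 and 3249 (median 2852) in air and at 7257, 4977, 5608, 7579.9 and 8598 after ozone (1.24 ± 0.15, adjusted p = 6.36e-05), with every ozone library above air. Of 56 splicing factors 14 rose and 12 fell (5 rose and 20 fell with total-read scaling). With the deposited scaling these were 25% and 21.4%, near the 21.6% and 22.1% over all genes. Srsf4 and Hnrnpl rose by 0.66 ± 0.12 and 0.65 ± 0.12, and Clk1, a kinase of SR proteins, and Hnrnpc fell by 1.12 and 1.08. Among marker lists, 2 of 5 tested tendon markers (7 listed) and 2 (1 without air 11 or ozone 15, 4 without ozone 13, 5 without air 4) of 11 adipocyte markers (12 listed) fell and none rose (for adipocyte markers 0 rose and 5 fell with total-read scaling). Of 17 T and NK cell markers 1 reached the minimum mean, of 11 B cell markers 2, and of 10 red cell markers 3. Of these only both B cell markers were called, as fallen.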
